A study of Rattus norvegicus with 4 samples.

Results

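The genes of the pyruvate dehydrogenase complex and of the enzymes that switch it on and off were examined in cultured rat heart muscle cells given a class IIa histone deacetylase inhibitor. The set was a fixed list of 10 gene names (4 catalytic subunits, 4 kinases and 2 phosphatases), drawn up with earlier results of these data known. All 10 were found by name among the 17147 entries of the main table, and all 10 passed the filter on low values. Total RNA came from neonatal rat ventricular myocytes, primary heart muscle cells of newborn rats kept in culture without serum. There were 2 libraries after 48 h with 3 µM TMP195, a small molecule that occupies the catalytic site of class IIa histone deacetylases, and 2 libraries after 48 h with DMSO, its solvent (vehicle). The labels name no genotype or further treatment. They leave unstated whether each library had its own culture, so the p-values rest on a spread between libraries that may be technical only.

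Pyruvate dehydrogenase sits in the mitochondrial matrix and turns pyruvate, the end product of glycolysis, into acetyl-CoA for the citric acid cycle. In a decarboxylase made of Pdha1 and Pdhb products, pyruvate loses carbon dioxide. The Dlat product passes the acetyl group over a lipoyl arm to coenzyme A, and the Dld product reoxidises that arm. The kinases encoded by Pdk1 to Pdk4 phosphorylate the Pdha1 protein and stop the complex, and the phosphatases encoded by Pdp1 and Pdp2 remove the phosphate and restart it. In heart muscle this switch sets how much glucose carbon is burned in place of fatty acids, and Pdk2 and Pdk4 are the kinases best known there.

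The promoters of 3 genes are shown because Dld and Pdk3 changed with TMP195 (below) and Pdk2 was the most abundant kinase. Each is a RefSeq window of assembly GRCr8 that runs from 250 bases before to 50 bases after the gene's start, read 5′ to 3′ on the gene's strand. RefSeq gave such a window for 8 of the 10 genes, but not for Pdp2 or for Pdp1, which also changed. No source used here names the build behind the deposited values, so no value is tied to these coordinates. Capitals mark matches, on either strand, to any of 5 motifs. The GC box was searched as GGGCGG. The box known to bind NF-Y was searched as its name reads, CCAAT. The E-box was searched as CACGTG, and the core of the antioxidant response element as TGACNNNGC. The last was the core of the nuclear respiratory factor 1 motif, which is GCGCA, then 1 free base, then the same letters without the final A.
Dld, chr6:53652298-53652597, minus strand: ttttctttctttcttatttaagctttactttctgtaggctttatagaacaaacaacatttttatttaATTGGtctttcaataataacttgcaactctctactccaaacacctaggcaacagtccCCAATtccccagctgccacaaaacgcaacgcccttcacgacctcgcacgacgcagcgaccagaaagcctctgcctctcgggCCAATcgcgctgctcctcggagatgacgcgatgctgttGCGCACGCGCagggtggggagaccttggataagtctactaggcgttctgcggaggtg
Pdk3, chrX:62547322-62547621, minus strand: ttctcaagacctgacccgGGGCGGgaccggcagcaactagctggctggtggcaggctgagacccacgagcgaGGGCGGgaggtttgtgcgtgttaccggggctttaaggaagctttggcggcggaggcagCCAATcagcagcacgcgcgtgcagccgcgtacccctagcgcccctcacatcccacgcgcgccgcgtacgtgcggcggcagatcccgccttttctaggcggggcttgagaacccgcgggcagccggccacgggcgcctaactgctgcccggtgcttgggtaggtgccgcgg
Pdk2, chr10:80483863-80484162, minus strand: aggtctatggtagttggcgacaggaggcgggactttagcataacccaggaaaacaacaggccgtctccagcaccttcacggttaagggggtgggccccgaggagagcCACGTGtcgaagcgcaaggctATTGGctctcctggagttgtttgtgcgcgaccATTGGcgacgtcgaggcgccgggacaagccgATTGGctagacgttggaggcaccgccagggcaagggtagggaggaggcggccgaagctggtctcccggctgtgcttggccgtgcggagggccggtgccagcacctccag

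The Dld window held 3 CCAAT boxes and 1 match to the nuclear respiratory factor 1 core, at bases 244 to 253 of the window. That core was present in 4.25% of 33469 rat promoter windows of the same length, and among the 8 windows of the set it was found in Dld. The Pdk3 window held 2 GC boxes and 1 CCAAT box, and the Pdk2 window 3 CCAAT boxes and 1 E-box. GC boxes occurred in 33.1% of all windows and in 5 of the 8, CCAAT boxes in 37.5% and in 4 of the 8, E-boxes in 6.42% and in 2 of the 8. The antioxidant response core occurred in 12.1% of all windows and in 2 of the 8, Pdha1 and Pdhb. No match overlapped a match to another of these motifs in the 8 windows. These are letter matches and show no binding.

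The main table holds the authors' estimated fragment counts, scaled by 1 constant per library (0.879 and 0.959 with TMP195, 0.948 and 1.05 with vehicle), so a value of 100 rests on about 100 fragments. The libraries held 14232168 and 13097037 fragments with TMP195, and 12902215 and 11768116 with vehicle. All 10 cardiac myocyte markers were present, with a summed value of 452400 and 451370 with TMP195 and of 490230 and 497790 with vehicle, and of them Tnni3 rose while Myh7, Actn2 and Ryr2 fell. Markers of fibroblasts were also present (13 of 13), so the RNA was not from myocytes alone. Their summed value was 70654 and 73544 with TMP195, against 99153 and 95625 with vehicle, most of it from Col1a1 and Col3a1. Of these markers 7 of 13 fell, and Dcn, Ddr2 and Postn were among those that did not pass. The marker counts are to be read against the 10.3% of all genes tested that were called lower and the 9.93% called higher (test below). Endothelial markers summed to 381 and 379 with TMP195, against 653 and 716 with vehicle, and 2 of 8 (Kdr and Tek) fell. Of the smooth muscle and pericyte markers, 1 of 6 (Cspg4) fell, from a list that summed to 7214 and 7024 with TMP195 and to 7979 and 7925 with vehicle. Most of that sum came from Abcc9 (3073 to 3709 per library) and Pdgfrb (2441 to 2662), while Rgs5 and Kcnj8 stood at 5.69 or less in every library. Macrophage markers summed to 430 and 373 with TMP195 and to 358 and 331 with vehicle, and red cell markers to at most 16.9 in any library. The part of these other cells in the results below was not tested. In bulk RNA, fewer cells of a type and less RNA per cell cannot be told apart.

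Dld rose with TMP195, Pdk3 and Pdp1 fell, and the other 7 genes did not pass the test. The test was limma on log2(value + 1) over the 12689 genes whose mean value reached 1, with a Benjamini-Hochberg adjusted p under 0.05 as threshold. The 3 of 10 called compares with 20.3% of all genes tested. The single gene called higher compares with 9.93% of all genes, and the 2 called lower with 10.3%. The median log2 fold change was -0.05 over the 10 genes and -0.01 over all genes. In 6 of the 10 genes the TMP195 and vehicle libraries did not overlap, as was the case for 56.7% of all genes tested.

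**Figure D1:**
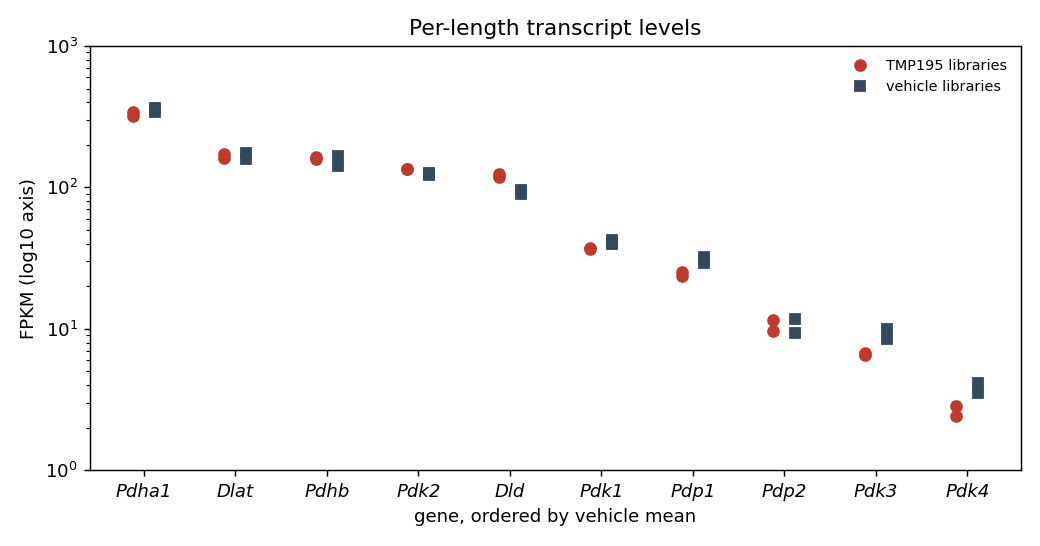
FPKM (the authors' level per transcript length and library size, log10 axis) of the 10 genes in the 2 TMP195 libraries (circles) and the 2 vehicle libraries (squares), ordered by vehicle mean. Pdha1 stands highest, between 317 and 364 FPKM, and Pdk4 lowest, between 2.40 and 4.17 FPKM.

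Levels can be compared between genes only per length, and the authors' FPKM values give this order. Pdha1 was the most abundant, with 344 and 317 FPKM with TMP195 and 341 and 364 FPKM with vehicle. In a deposited table of 10673 genes, only 2.87% had a higher mean FPKM. Dlat followed with 171 and 161 FPKM with TMP195 and 159 and 175 FPKM with vehicle, and its range overlapped that of Pdhb, which had 164 and 159 FPKM with TMP195 and 142 and 167 FPKM with vehicle. Pdk2 came next and stood above Dld in all 4 libraries. Below Dld lay Pdk1 and Pdp1, whose ranges did not overlap each other in either group. Pdp2, at 11.5 and 9.70 FPKM with TMP195 and 9.30 and 11.7 FPKM with vehicle, overlapped Pdk3 among the vehicle libraries. Pdk4 was the lowest, and 80.3% of the listed genes had a higher mean FPKM. The order by group mean was the same with TMP195 and with vehicle.

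Of the 4 catalytic subunits, Dld rose and Pdha1, Pdhb and Dlat did not pass the test. Dld, which encodes dihydrolipoamide dehydrogenase, had deposited values of 4199 and 4022 with TMP195, against 3049 and 3217 with vehicle. Both TMP195 libraries were above both vehicle libraries. Dld rose 1.31-fold (95% confidence interval 1.18 to 1.45), with means of 4111 ± 125 with TMP195 and 3133 ± 119 with vehicle (SD, n = 2 each; limma adjusted p = 0.000146). In FPKM, Dld stood at 124 and 119 with TMP195 and at 90.05 and 95.03 with vehicle. In the authors' deposited table of higher genes Dld has a ratio of 1.31 and an unadjusted p of 0.0153. It is the single gene of the 10 listed there, among 594 genes, where 10673 genes have deposited FPKM values.

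Pdha1, which carries the phosphorylated serines, had values of 12624 and 11644 with TMP195 and of 12540 and 13373 with vehicle. The groups overlapped, and the log2 fold change was -0.10 (95% confidence interval -0.24 to 0.05; limma adjusted p = 0.377). Pdha2, its testis copy, is listed at 0 in all 4 libraries. Pdhb, which encodes the beta subunit of the decarboxylase, had 3661 and 3547 with TMP195 and 3172 and 3716 with vehicle, with a log2 fold change of 0.07 (95% confidence interval -0.09 to 0.23). Dlat, the acetyl carrier and core of the complex, had 5768 and 5432 with TMP195 and 5377 and 5902 with vehicle. Its log2 fold change of -0.01 had an interval of -0.15 to 0.14. For these 3 genes the groups overlapped and the intervals included 0.

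The proportion of Dld to the other subunits was higher in both TMP195 libraries than in both vehicle libraries. The ratio of Dld to Pdha1 FPKM was 0.361 and 0.375 with TMP195, against 0.264 and 0.261 with vehicle. The ratio of Dld to Dlat FPKM was 0.725 and 0.738 with TMP195, against 0.565 and 0.543 with vehicle. Dld thus stood higher relative to both subunits. The ratio of Dlat to Pdha1 was 0.497 and 0.508 with TMP195 and 0.467 and 0.480 with vehicle, and that of Pdhb to Pdha1 was 0.478 and 0.502 with TMP195 and 0.417 and 0.458 with vehicle, so these ratios to Pdha1 did not overlap either. An exact permutation test of 2 libraries against 2 cannot give a two-sided p below 0.333, and the 4 ratios are given as a description without a test.

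Pdhx, which encodes the protein that anchors dihydrolipoamide dehydrogenase to the core, is not among the 10 genes. It had values of 533 and 522 with TMP195, against 370 and 476 with vehicle, and the groups did not overlap. Pdhx did not pass the test (log2 fold change 0.33, SE 0.12; limma adjusted p = 0.0577). It passed when the minimum mean value was raised to 10 (limma adjusted p = 0.0440) or to 100 (0.0314). Under the other alternatives that kept all 4 libraries Pdhx did not pass, with adjusted p from 0.0549 (pseudocount of 10) to 0.131 (no filter). Without vehicle 1 the log2 fold change was 0.15, and without vehicle 2 it was 0.51. Pdpr, the regulatory subunit of the phosphatase, had a log2 fold change of 0.05 (SE 0.11).

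**Figure D2:**
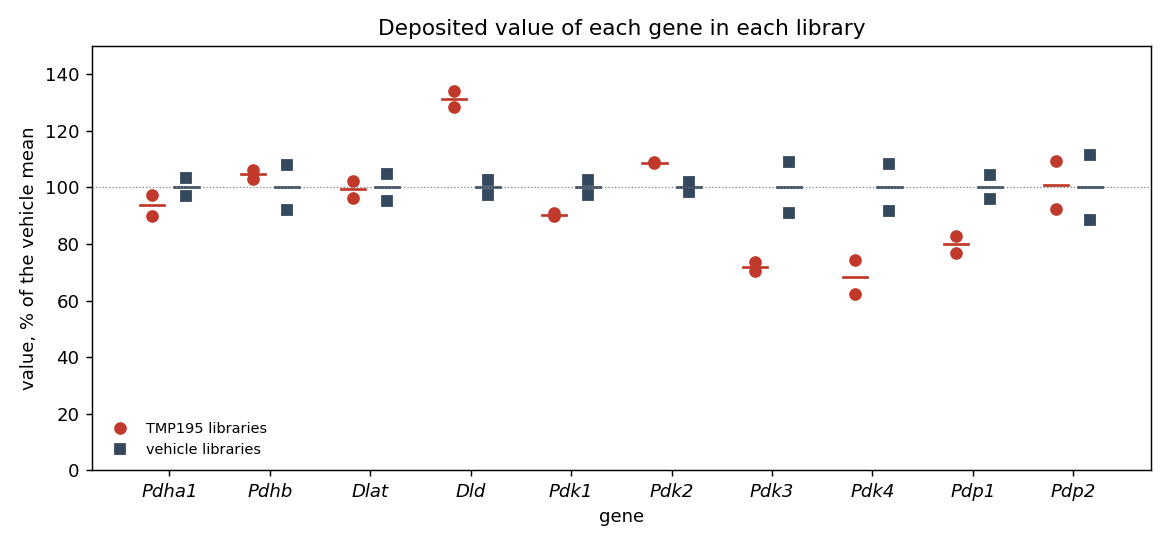
Deposited value of each gene in each library as a percentage of its vehicle mean, with TMP195 libraries as circles, vehicle libraries as squares and group means as bars. Dld stands above and Pdk1, Pdk3, Pdk4 and Pdp1 stand below the vehicle libraries in both TMP195 libraries, and Pdk2 stands slightly above.

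Of the 4 kinases, Pdk3 fell and the other 3 did not pass the test. Pdk3, a kinase found mainly outside heart and skeletal muscle, had values of 192 and 183 with TMP195, against 237 and 283 with vehicle. Both TMP195 libraries were below both vehicle libraries. Pdk3 fell to 0.724 times its vehicle level (95% confidence interval 0.577 to 0.909), with means of 187 ± 5.93 with TMP195 and 260 ± 32.7 with vehicle (SD, n = 2 each; limma adjusted p = 0.0374). Without the minimum mean value Pdk3 was no longer called (adjusted p = 0.0731). The authors' deposited table gives Pdk3 an unadjusted p of 0.186.

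Pdk4, the kinase that fasting and fatty acids induce in heart, was the scarcest of the 4. Its deposited values of 49.2 and 41.2 with TMP195 and of 60.7 and 71.6 with vehicle correspond to 56 and 43 fragments with TMP195 and to 64 and 68 with vehicle. Both TMP195 libraries were below both vehicle libraries. On the scale of the deposited values, the exact Poisson intervals, which cover counting error only, ran from 37.2 to 63.9 and from 29.8 to 55.55 with TMP195, against 46.7 to 77.5 and 55.61 to 90.8 with vehicle. Only TMP195 2 and vehicle 2 had intervals that did not overlap each other. The log2 fold change was -0.54 (95% confidence interval -1.16 to 0.08; limma adjusted p = 0.229), and Pdk4 did not pass the test.

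Pdk2, the broadly expressed kinase, had values of 3697 and 3708 with TMP195 and of 3343 and 3466 with vehicle. The TMP195 libraries lay slightly above the vehicle libraries, with a log2 fold change of 0.12 (95% confidence interval -0.02 to 0.27; limma adjusted p = 0.256). Pdk1, a kinase known as a target of hypoxia-inducible factor, had 714 and 723 with TMP195 and 776 and 817 with vehicle. Its TMP195 libraries lay slightly below, with a log2 fold change of -0.15 (95% confidence interval -0.35 to 0.05; limma adjusted p = 0.322).

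**Figure D3:**
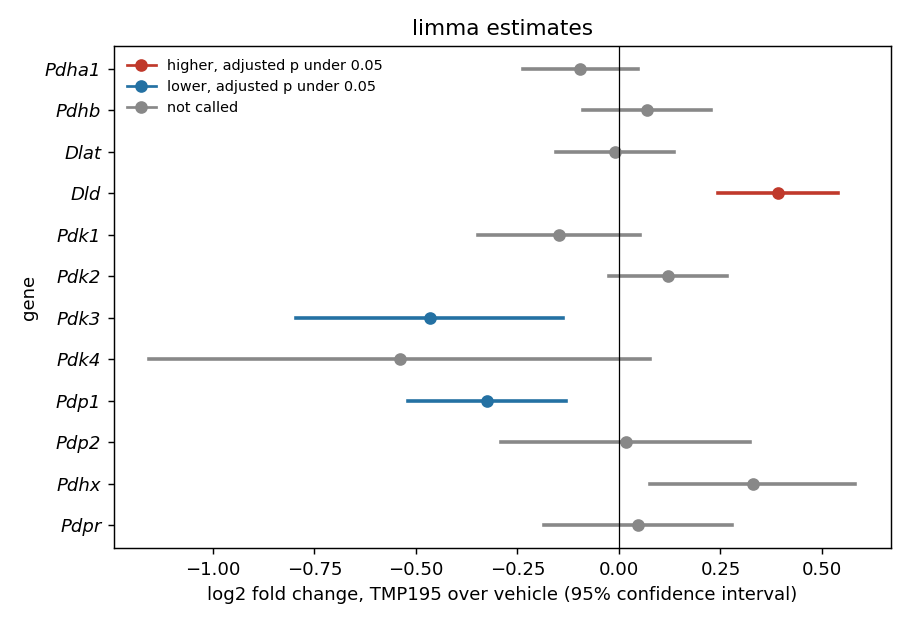
Log2 fold change of TMP195 over vehicle from limma with its 95% confidence interval for the 10 genes and for Pdhx and Pdpr, coloured by call at an adjusted p under 0.05. Dld lies at 0.39, Pdk3 at -0.47 and Pdp1 at -0.32, and Pdk4 has the widest interval of the 12 genes.

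By summed FPKM, Pdk2 made up most of the kinase transcripts in every library, with 74.4 and 74.6% with TMP195 and 70.2 and 69.2% with vehicle. Pdk1 accounted for 20.3 and 20.5% with TMP195 and for 23.0% in both vehicle libraries. Pdk3 contributed 3.73 and 3.57% with TMP195, against 4.82 and 5.48% with vehicle. Pdk4 contributed 1.57 and 1.32% with TMP195, against 2.03 and 2.27% with vehicle. The 4 kinases summed to 182 FPKM in both TMP195 libraries and to 174 and 183 FPKM with vehicle, so the summed level overlapped. Shares of 1 total are not independent of each other, and they are given as a description without a test.

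Of the 2 phosphatases, Pdp1 fell and Pdp2 did not pass the test. Pdp1, the calcium-sensitive phosphatase of muscle, had values of 824 and 767 with TMP195, against 955 and 1039 with vehicle. Both TMP195 libraries were below both vehicle libraries. Pdp1 fell to 0.798 times its vehicle level (95% confidence interval 0.698 to 0.913), with means of 796 ± 40.3 with TMP195 and 997 ± 59.8 with vehicle (SD, n = 2 each; limma adjusted p = 0.0131). The authors' deposited table gives Pdp1 an unadjusted p of 0.0723. Pdp2 had values of 309 and 261 with TMP195 and of 250 and 315 with vehicle, which overlapped fully (log2 fold change 0.02, 95% confidence interval -0.29 to 0.32).

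Pdp1 made up 68.8 and 70.9% of the summed phosphatase FPKM with TMP195, against 75.9 and 73.2% with vehicle. The phosphatases together stood at 36.9 and 33.3 FPKM with TMP195, against 38.7 and 43.7 FPKM with vehicle. The ratio of summed kinase to summed phosphatase FPKM was thus 4.93 and 5.46 with TMP195, against 4.51 and 4.195 with vehicle. These are transcript ratios, and enzyme activity was not measured.

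**Figure D4:**
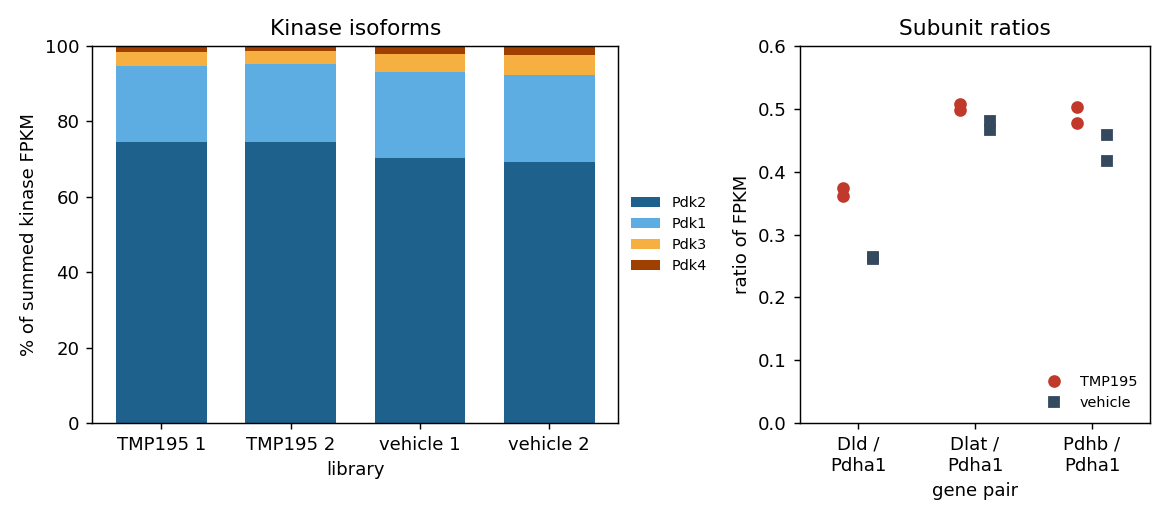
Left, the percentage of the summed kinase FPKM held by each kinase in each library. Right, FPKM ratios of Dld, Dlat and Pdhb to Pdha1 in TMP195 (circles) and vehicle (squares) libraries, where Dld to Pdha1 stands at 0.361 and 0.375 with TMP195 and at 0.264 and 0.261 with vehicle.

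Whether a call held with 1 library left out depended on the filter on low values. With any 1 library left out, limma called 0 of the 10 genes and 0 of all 12689, although 1 to 3 of the 10 and 2534 to 2665 of all had an unadjusted p under 0.05. When the same fits were made over the 8235 genes whose mean value reached 100, Dld was called without each of the 4 libraries (adjusted p from 5.29e-06 to 0.00363). Pdp1 was called without TMP195 1 or without vehicle 1 but not without TMP195 2 (adjusted p = 0.0654) or without vehicle 2 (adjusted p = 0.102), and Pdk3 was called only without vehicle 1 (adjusted p = 0.0157). In each of these fits 1 group has a single library, which is assumed to vary like the other group. The residual spread thus comes from the other group alone. Under the main filter every call was lost whichever library was left out, so those losses do not show that a call rests on any single library. Over the 8235 genes, the calls of Pdp1 and Pdk3 depended on which library was left out, and that of Dld did not. The log2 fold change kept its sign in every such fit, between 0.35 and 0.43 for Dld, between -0.39 and -0.26 for Pdp1 and between -0.59 and -0.34 for Pdk3.

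Of 15 tested genes that deliver pyruvate or use it outside the complex, 3 rose and 1 fell, where 20.3% of all genes were called. The counts of every list below are to be read against the same share, with 9.93% of all genes higher and 10.3% lower. Mpc1, a subunit of the mitochondrial pyruvate carrier, had 2701 and 2526 with TMP195, against 2064 and 2166 with vehicle, and rose (log2 fold change 0.30, SE 0.08; limma adjusted p = 0.00398). Its partner Mpc2 had 1150 and 937 with TMP195 and 1219 and 957 with vehicle, which overlapped. Gpt2, a mitochondrial transaminase that links pyruvate and alanine (0.81), and Me1, the cytosolic malic enzyme that forms pyruvate (0.41), also rose. Ldha, the muscle-type subunit that reduces pyruvate to lactate, fell (-0.35, SE 0.07; limma adjusted p = 0.000566), while Ldhb had a log2 fold change of 0.08 (SE 0.07). The list median was 0.08, against -0.01 for all genes.

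Dld also serves the complexes that oxidise 2-oxoglutarate and branched-chain keto acids, and the lipoyl arms they share are built by a common pathway. Of 13 genes of lipoate synthesis and attachment and its iron-sulfur supply, 4 rose and 9 did not pass (median 0.13). Nfu1, which delivers iron-sulfur clusters to lipoate synthase, had 1363 and 1495 with TMP195, against 741 and 766 with vehicle. Nfu1 rose by 0.92 on the log2 scale (SE 0.09, limma adjusted p = 6.33e-09). Bola3, which acts with it, rose as well (0.46), as did Isca1 (0.27) and Fdx1l (0.33), a mitochondrial ferredoxin. Fdx1l was no longer called under 5 of the 8 alternatives that kept all 4 libraries (adjusted p from 0.0551 to 0.0839). Lias, the lipoate synthase itself, had a log2 fold change of -0.06 (SE 0.14).

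Of 12 genes of the other complexes that carry lipoate, 1 rose, 1 fell and 10 did not pass (median 0.10). Bckdk, the kinase that stops the branched-chain keto acid complex, had 1257 and 1293 with TMP195, against 1124 and 1024 with vehicle (log2 fold change 0.25, SE 0.09; limma adjusted p = 0.0425). Ppm1k, the phosphatase that restarts it, had 760 and 724 with TMP195, against 869 and 972 with vehicle (-0.31, SE 0.10; limma adjusted p = 0.0219). Bckdk was no longer called under 5 of the 8 alternatives that kept all 4 libraries (adjusted p from 0.0561 to 0.0722), nor Ppm1k without the minimum mean value (adjusted p = 0.0502). Dbt, the acyltransferase core of that complex, had 0.24 (SE 0.09), and Dhtkd1, a 2-oxoadipate dehydrogenase, had -0.47 (SE 0.19), neither past the threshold. Ogdh (0.09, SE 0.07) and Dlst (0.12, SE 0.07), subunits of the 2-oxoglutarate complex, did not pass.

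Of 7 genes that use or export acetyl-CoA, 3 rose (median 0.23). They were Crat (0.63), which moves acetyl groups onto carnitine, Slc25a20 (0.78), the carnitine carrier, and Cs (0.23), citrate synthase. Slc25a1, the citrate carrier, had 0.24 (SE 0.12) and did not pass. Of 6 genes of mitochondrial calcium handling, Letm1 rose (0.43, SE 0.09), and Mcu, the pore of the uniporter, had 0.30 (SE 0.16; limma adjusted p = 0.197). Slc8b1, the sodium-calcium exchanger (-0.35, SE 0.25), did not pass either. Of the 3 mitochondrial sirtuins, Sirt5 rose (0.27, SE 0.10; limma adjusted p = 0.0438), which was no longer called under 5 of the 8 alternatives that kept all 4 libraries (adjusted p from 0.0531 to 0.0715) or in any fit that left out a library. Sirt3 (0.50, SE 0.21) and Sirt4 (0.17, SE 0.43) did not pass.

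Pdk4 is a known target of PPAR receptors, and other PPAR targets of heart are given beside it, from a list chosen with earlier results known. Of 19 tested, 13 rose and 6 did not pass, with a list median of 0.55. Cpt1b, which admits fatty acids to mitochondria, had 3728 and 3694 with TMP195, against 1717 and 1859 with vehicle. Acot2 (1.30), Hadhb (0.91) and Ech1 (0.86), enzymes of mitochondrial fatty acid metabolism, rose too, while Pdk4 had the log2 fold change of -0.54 given above. Of 10 genes of the PPAR and oestrogen-related receptors and their coactivators, Esrra rose (0.54) and the coactivators Ppargc1a (-0.32) and Ppargc1b (-0.40) fell. Rxrb (0.24, SE 0.13) and Ppara itself (0.16, SE 0.11) did not pass.

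Glucocorticoid and FoxO control also acts on Pdk4, and of 15 of its regulators and targets 5 rose and 1 fell (median 0.01). The regulators Nr3c1 (-0.12, SE 0.07), Foxo1 (-0.04, SE 0.10), Foxo3 (-0.01, SE 0.10) and Foxo4 (-0.03, SE 0.12) did not pass. Cited2 (0.97), the muscle ubiquitin ligases Fbxo32 (0.50) and Trim63 (0.39) rose, and Txnip (-0.41), an inhibitor of glucose uptake, fell. Of 15 hypoxia factor and target genes, the group to which Pdk1 belongs by regulation, 3 rose and 1 fell (median -0.03). Vegfa (0.74), Bnip3 (0.59) and Ddit4 (1.14) rose, and Mxi1 (-0.64) fell.

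**Figure D5:**
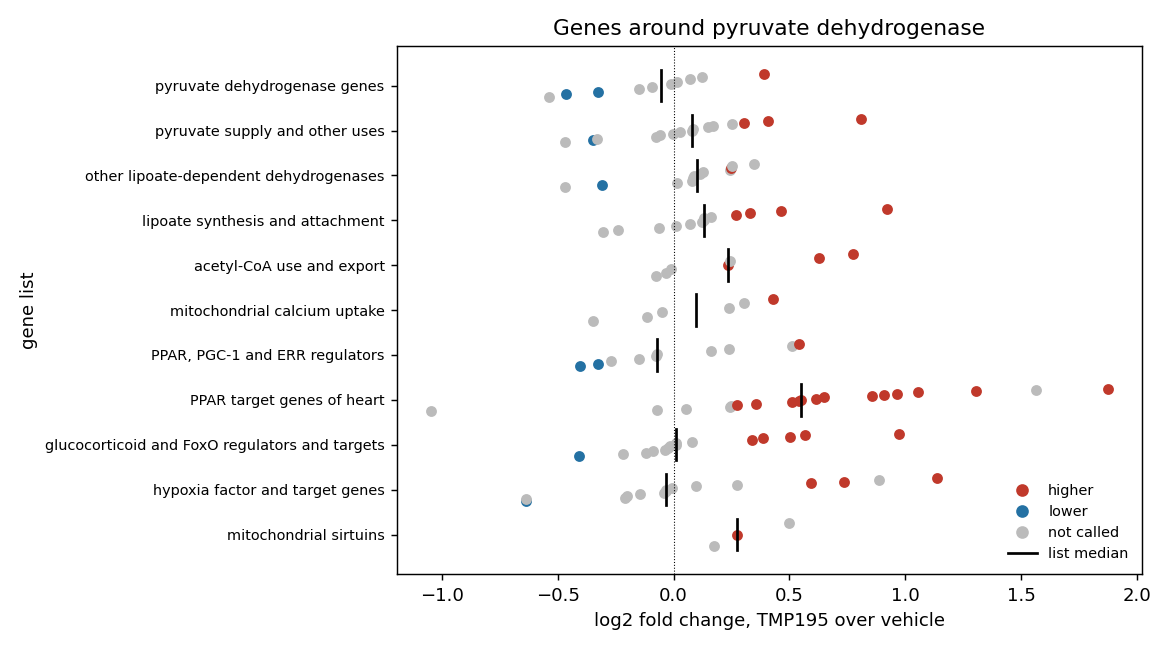
Log2 fold change of TMP195 over vehicle (1 point per tested gene) for the 10 pyruvate dehydrogenase genes and 10 lists around them, coloured by call, with the list median as a black line. The 10 genes centre on -0.05, while the PPAR targets centre on 0.55 with 13 of 19 called higher, against 9.93% of all genes. The genes and the lists were chosen with earlier results known.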

How the data were processed

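Per the labels' protocols, Ovation RNA-Seq libraries were prepared from total RNA, and the submitters' processing notes name Cufflinks. Aligner, version, genome build, annotation and strand setting: not given in the sources used here. Deposited signal values of the main table are estimated fragment counts times 1 constant per library, read from the values: 99.3 to 99.5% of values up to 10000 fragments were whole multiples of the constant within 0.1 fragment. The authors deposited FPKM values in a further table, identified from their proportion to the main table, with a p-value per gene, and the ratio of mean FPKM in a sheet of higher genes.

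The main table was tested with limma 3.58.1 in R 4.3.3 on log2(value + 1) without further scaling, for genes whose mean value reached 1, with 2 residual and 27.4 prior degrees of freedom. Adjusted p-values (Benjamini-Hochberg) cover all genes. The fold scale understates changes of low genes. Reads of overlapping genes may be shared between them. The members and the lists were chosen with earlier results of these data known. All 10 members are named, and from each list up to 4 tested genes with the smallest p, except that 1 list and 1 further gene are not reported here. Mpc2, Ldhb, Lias, Ogdh, Dlst, Ppara, Nr3c1, Foxo1, Foxo3 and Foxo4 are further examples, chosen after their values were seen. Alternatives changed the pseudocount, filter, scaling, test, replicate term and libraries.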

Additional observations from a re-analysis of the deposited data

How the results depend on the processing

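Of the counts over all genes and over the 10 genes, the changes beyond 1.5 times came from leaving out libraries and from dropping the filter. Without each library in turn, limma called 0 genes higher or lower, the 10 genes included (2534 to 2665 genes passed 0.05 before adjustment). When the minimum mean was also raised to 100, 973 to 1081 genes were called higher and 959 to 1062 lower, and of the 10 genes 1 was called higher and 0 to 2 lower. Without the filter on low values, 1 of the 10 genes was called lower, in place of 2, since Pdk3 was lost. Under pseudocounts of 0.1 and 10, minimum means of 10 and 100, scaling by library total and limma-voom with library totals, the same 3 genes were called. Bckdk, Fdx1l and Sirt5 were lost with the pseudocount of 0.1, no filter, scaling by library total, voom and the block. Pdk4 is not tested at a minimum mean of 100. The voom fit and the fits that join a left-out library with the minimum mean of 100 were chosen after seeing the data. With the replicate number as a block, 1 of the 10 was called higher and 2 lower, the calls of Bckdk (adjusted p = 0.0606), Fdx1l (0.0551) and Sirt5 (0.0622) were lost, and the numbers were not shown to pair the libraries (deviations of same-numbered libraries correlated at -0.06 over 8235 genes). Scaling by total moved the median of all genes from -0.01 to -0.03. The planned count models (quasi-likelihood and negative binomial) and voom with TMM were not run: the packages that provide them were kept for tables of whole counts, and some values here are fractional. The 2 kinase shares whose difference moved without length correction were Pdk1 (-2.15 in place of -2.59 percentage points) and Pdk4 (-0.49 in place of -0.70). Precision was limited for Pdk4, at 43 to 68 fragments a library.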
